A study of Mus musculus with 62 samples.

Results

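The subject is a zinc finger protein repressor delivered under the label N-ZFP to the striatum of mice with the genotype label NCAR, taken here as animals without the huntingtin transgene. The members are the 8 bulk striatal libraries titled for these groups, 4 N-ZFP and 4 N-Delta, of 62 libraries in all. N-Delta is the control virus of the same N series. Both groups received a PHP.eB adeno-associated virus at 4 weeks of age, and striatal RNA was collected at 11 weeks. The cell-type label of the N libraries is neuron, whereas the treatment text of the same series calls the PHP.eB viruses astrocytic throughout. The labels name no promoter, dose or route for these viruses. They also do not say whether libraries came from separate animals, so p-values measure the spread between these libraries, which may in part be technical. Comparison groups were 8 NCAR libraries with the A series viruses (A-ZFP and A-Delta), 8 R6/2 libraries with N-ZFP or N-Delta at the same ages, and striatal libraries of WT and zQ175 knock-in mice given N viruses by intrastriatal injection at 6 months and collected at 12 months.

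As background, zinc finger repressors of this class join a designed DNA-binding domain to a domain that silences nearby transcription, and those made for Huntington disease bind the CAG repeat of huntingtin. Other genes with CAG or CTG runs near their start can then be bound too. In bulk tissue, fewer cells of a type and less RNA per cell cannot be told apart.

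Total counts were 50097471 to 75342332 per library, so 3 counts corresponded to 0.0398 to 0.0599 CPM, the counts of a gene scaled to a common library total. The labelled tissue was present in all 8 libraries: Ppp1r1b (DARPP-32), Pde10a, Drd1 and Penk, which mark striatal projection neurons, were at 556 to 1123, 504 to 1731, 331 to 457 and 626 to 1149 CPM. The library labelled N-ZFP 1 stood apart from the other 3 N-ZFP libraries, with weaker falls of most of the lowered genes described first below. This did not hold for all lowered genes. Cytosolic ribosomal protein genes summed to 5956 CPM in N-ZFP 1, against 6286 to 7766 CPM in the other 3. Nuclear oxidative phosphorylation genes summed to 11770 CPM in N-ZFP 1, against 12230 to 14940 CPM. The labels give no vector level for single libraries, so whether the label or dose of N-ZFP 1 differs could not be checked. Values resting on N-ZFP 1 are given with and without it. Levels below are trimmed-mean-normalised CPM, which are not scaled for transcript length and compare libraries within a gene.

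A small group of genes was lower in N-ZFP under most settings. Many of them were also lower in R6/2 striatum or in neuronal RNA of other mice, while WT and zQ175 bulk striatum gave 0 calls. Several of these genes carry CAG or CTG runs in their exons. The runs of the genes that the results turn on are shown here from GENCODE M21 transcripts (mm10), 5′ to 3′ on the transcript strand, with the uninterrupted run in capitals and flanks in lower case.
Nap1l3, CAG run in coding sequence, chrX:122396799-122396846, minus strand: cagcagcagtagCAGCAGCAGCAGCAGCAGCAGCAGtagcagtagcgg
Dach1, CAG run in coding sequence, chr14:98168879-98168920, minus strand: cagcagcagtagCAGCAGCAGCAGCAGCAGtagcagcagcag
Brdt, CAG run in coding sequence, chr5:107359872-107359913, plus strand: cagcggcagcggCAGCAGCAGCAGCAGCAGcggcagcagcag
Tceal6, CTG run in the 5′ untranslated region, chrX:135210626-135210655, minus strand: ctagtcCTGCTGCTGCTGCTGCTGcggata
Impdh1, CAG run in the 5′ untranslated region, chr6:29212236-29212265, minus strand: ggtgcgcgtCAGCAGCAGCAGcggcggcgg
Acsl1, CTG run in the 5′ untranslated region, chr8:46471081-46471109, plus strand: cccggccCTGCTGCTGCTGCTGcaacgcc
Htt, the reference repeat of the mouse gene, chr5:34761955-34761990, plus strand: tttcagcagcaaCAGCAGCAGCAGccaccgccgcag
Among the genes searched for single runs, the longest in exons were 19 CAG units in the 5′ untranslated region of Gab3 and 10 in that of Gas2. Exon runs of at least 4 units, the length in Impdh1, lay in 5.98% of all genes with exons. The share was 3.32% of genes called lower and 12.6% of genes called higher. Median exon length also differed, at 2563 bases for genes called lower, 6114 for genes called higher and 3392 over all genes tested. The part of exon length in these shares was not tested. Rsl24d1 carries a run of 17 CTG units outside the transcript. That run ends 125 bases before the start of the gene in the RefSeq promoter window (GRCm38.p6). For others of the lowered genes searched, the longest run in exons was 3 units in Atp2b3, Dnajc12, Mzt2 and Tle6 and 2 in Rassf3. Single runs of the remaining lowered genes described below, such as Arpp21, are not given here.
Rsl24d1, CTG run before the gene start, chr9:73113269-73113367, plus strand: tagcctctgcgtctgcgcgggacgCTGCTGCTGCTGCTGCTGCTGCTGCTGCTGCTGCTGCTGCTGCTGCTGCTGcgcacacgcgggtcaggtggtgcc

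Tceal6, an X-linked member of the transcription elongation factor A-like family at chrX:135208687-135210687, was at 50.6, 53.4, 51.2 and 51.8 CPM in N-Delta 1 to 4 and at 43.3, 11.8, 14.8 and 13.3 CPM in N-ZFP 1 to 4. Every N-ZFP library was below every N-Delta library, but N-ZFP 1 was at 83.6% of the N-Delta mean and the other 3 were at 22.8% to 28.6%. The log2 fold change was -1.31 ± 0.31 (SE; adjusted p = 0.0195) with all libraries and -1.96 ± 0.26 (adjusted p = 8.67e-05) without N-ZFP 1. The 8 NCAR libraries with A viruses were at 39.6 to 59.1 CPM, so no other NCAR library reached the level of N-ZFP 2 to 4.

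Nap1l3, a nucleosome assembly protein gene at chrX:122394565-122397401, was at 70.3, 61.4, 62.4 and 73.0 CPM in N-Delta and at 38.3, 13.3, 14.6 and 16.4 CPM in N-ZFP. The groups did not overlap, as for 5.7% of all genes with N-ZFP lower and 5.01% with N-ZFP higher, and N-ZFP 1 was again the highest of its group, at 57.4% of the N-Delta mean. The fall was -1.69 ± 0.27 on the log2 scale (adjusted p = 0.00268), and -2.18 ± 0.25 without N-ZFP 1 (adjusted p = 1.74e-05).

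Atp2b3, a plasma membrane calcium pump gene, was at 69.5, 76.7, 72.3 and 77.1 CPM in N-Delta and at 64.6, 17.2, 28.5 and 25.6 CPM in N-ZFP. Its log2 fold change was -1.12 ± 0.28 (adjusted p = 0.0195), and -1.63 ± 0.24 without N-ZFP 1 (adjusted p = 0.000451). Dach1, which encodes a transcriptional cofactor, was at 65.4, 97.8, 71.1 and 80.0 CPM in N-Delta and at 96.2, 29.7, 37.7 and 37.9 CPM in N-ZFP. Here N-ZFP 1 lay inside the N-Delta range while the other 3 N-ZFP libraries lay below it. The log2 fold change of Dach1 was -0.64 ± 0.23 (adjusted p = 0.0454) with N-ZFP 1 and -1.16 ± 0.15 (adjusted p = 9.99e-05) without it. Arpp21, a cAMP-regulated phosphoprotein of projection neurons, followed the same order, with 892 to 1225 CPM in N-Delta, 1119 CPM in N-ZFP 1 and 399 to 440 CPM in N-ZFP 2 to 4. Its log2 fold change moved from -0.77 ± 0.21 (adjusted p = 0.0219) to -1.27 ± 0.13 (adjusted p = 1.05e-05) when N-ZFP 1 was left out.

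**Figure D1:**
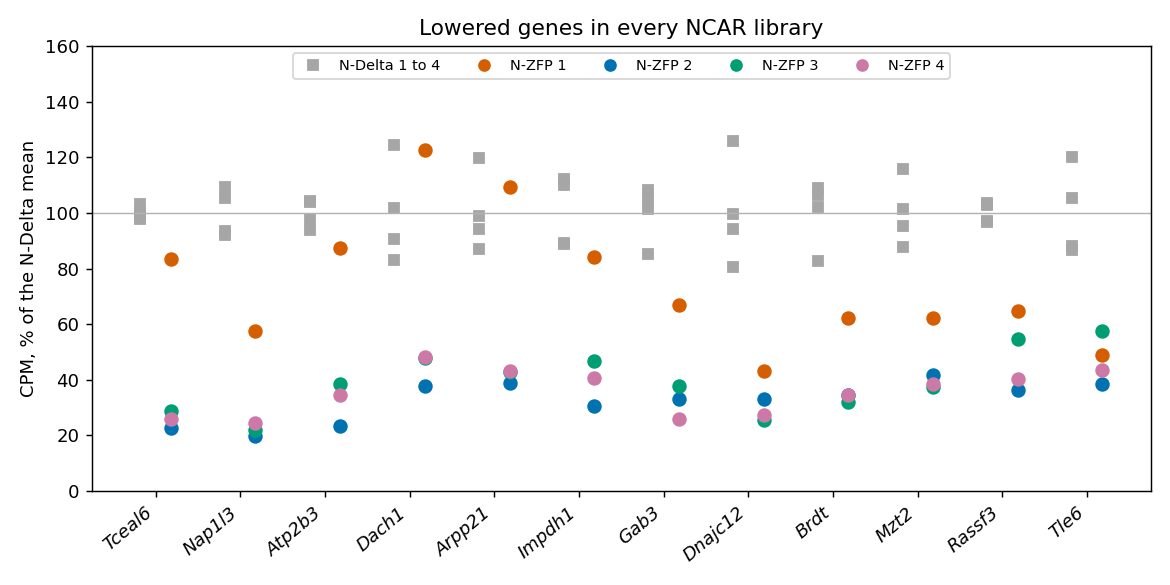
Level of 12 lowered genes in each NCAR library as a percentage of the N-Delta mean of that gene; grey squares are the 4 N-Delta libraries and coloured circles the 4 N-ZFP libraries. N-ZFP 2 to 4 sit together well below 100%, and N-ZFP 1 is highest of its group for all genes drawn except Tle6.

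Dnajc12, which encodes a J-domain co-chaperone, was at 25.9, 16.6, 20.5 and 19.5 CPM in N-Delta and at 8.94, 6.85, 5.26 and 5.63 CPM in N-ZFP. All N-ZFP libraries were below all N-Delta libraries, with a log2 fold change of -1.63 ± 0.22 (adjusted p = 0.000449). Mzt2, a component of gamma-tubulin complexes, was at 17.8, 14.7, 15.6 and 13.5 CPM in N-Delta and at 9.56, 6.45, 5.78 and 5.94 CPM in N-ZFP, a log2 fold change of -1.15 ± 0.16 (adjusted p = 0.000536). Impdh1, which catalyses the committed step of guanine nucleotide synthesis, was at 24.5, 30.9, 30.3 and 24.6 CPM in N-Delta and at 23.2, 8.42, 12.9 and 11.2 CPM in N-ZFP. N-ZFP 1 came close to the lowest N-Delta library, and the log2 fold change of Impdh1 was -0.98 ± 0.19 (adjusted p = 0.0122), or -1.34 ± 0.15 without N-ZFP 1 (adjusted p = 1.74e-05). Rassf3, a Ras association domain gene, was at 28.4 to 30.3 CPM in N-Delta and 10.6 to 18.9 CPM in N-ZFP (log2 -1.03 ± 0.17, adjusted p = 0.00274).

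Gab3, an adaptor of receptor tyrosine kinase signalling, was at 2.43 to 3.09 CPM in N-Delta and 0.740 to 1.91 CPM in N-ZFP, a log2 fold change of -1.28 ± 0.23 (adjusted p = 0.00467). Brdt, a bromodomain gene best known from testis, was at 12.1 to 15.9 CPM in N-Delta and 4.69 to 9.11 CPM in N-ZFP (log2 -1.29 ± 0.20, adjusted p = 0.00148). Rsl24d1, a ribosome biogenesis factor, was at 29.7 to 39.1 CPM in N-Delta and 16.4 to 22.1 CPM in N-ZFP (log2 -0.79 ± 0.12, adjusted p = 0.00148). Acsl1, a long-chain fatty acyl-CoA synthetase, fell by 0.39 ± 0.12 on the log2 scale (adjusted p = 0.0284), and by 0.59 ± 0.10 without N-ZFP 1 (adjusted p = 0.00196). Asah1 (acid ceramidase), Chml (a Rab escort protein), Pnpla8 (a phospholipase) and Uxs1 (a UDP-sugar enzyme) fell by 0.66, 0.69, 0.55 and 0.43 on the log2 scale (adjusted p = 0.00268, 0.0152, 0.00148 and 0.0135). These last 4 genes, with Rsl24d1 and Acsl1, were named after their values were seen.

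Huntingtin itself did not pass the test. Htt was at 120, 178, 155 and 153 CPM in N-Delta and at 238, 155, 222 and 184 CPM in N-ZFP, and the groups overlapped. Its log2 fold change was 0.40 ± 0.15 (adjusted p = 0.0512), 0.05 ± 0.05 with offsets for transcript length and base composition, and -0.36 ± 0.15 (adjusted p = 0.446) against A-Delta. Of the 9 polyglutamine disease genes, 1 passed the test, Cacna1a, a calcium channel subunit, at 0.48 ± 0.15 (adjusted p = 0.0307), which became 0.07 ± 0.07 with the offsets and did not pass without N-ZFP 1 (0.46, adjusted p = 0.0911). Of the ataxin genes, Atxn1, Atxn2, Atxn3 and Atxn7 had log2 values of 0.08, 0.22, 0.13 and 0.24 with adjusted p from 0.076 to 0.547. With the offsets Atxn3 passed, at 0.22 ± 0.06 (adjusted p = 0.0269), and was the 1 gene of the 9 called. Atxn1, Atxn2 and Atxn7 were then at -0.15, 0.10 and 0.13 and did not pass.

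Genes chosen in other animals were then read in the NCAR libraries. Neuronal RNA of WT mice given N-ZFP had 15 genes lower than with N-Delta, 0.0948% of the 15815 tested there, and 5 higher (0.0316%), and zQ175 neuronal RNA had 31 lower (0.196%) and 21 higher (0.133%). These experiments share no library with NCAR. Of the 15, 9 were also called lower in NCAR and 1, Ace, was called higher, against 10.2% of all genes tested called lower in NCAR. The 9 were Impdh1, Acsl1, Mzt2, Atp2b3, Tceal6, Lysmd2, Dnajc12, Dach1 and Nap1l3. The remaining 5 were Gpx6, Kcna6, Myo3b, Opcml and Zbtb18, with NCAR log2 values of -0.77, -0.09, 0.18, -0.27 and 0.03 that did not pass. Over the 11 genes lower in both WT and zQ175 neuronal RNA, the median log2 ratio to the N-Delta mean was -0.24 in N-ZFP 1, -1.39 in N-ZFP 2, -1.24 in N-ZFP 3 and -1.28 in N-ZFP 4. N-ZFP 1 was the highest N-ZFP library for all 11 of these genes, compared with 28.2% of all genes tested. Of the 11 genes, 9 were called lower with all libraries, 9 without N-ZFP 1, 11 with length and GC offsets and 5 with the length index as covariate. Of the 31 genes lower in zQ175 neuronal RNA, 16 were lower in NCAR and 2 higher. Over these 31 genes the median log2 ratio was -0.03 in N-ZFP 1 and -0.39 to -0.31 in N-ZFP 2 to 4. It was 0.04 to 0.21 in the A virus libraries. Over the 11 genes the 8 A virus libraries had medians from -0.09 to 0.27, and the 4 N-Delta libraries from -0.09 to 0.05. Genes lower in R6/2 striatum ran differently: of 1058, 55 were lower in NCAR (5.2%, under the 10.2% of all genes) and 133 higher, with a median of 0.12. Of the 133 genes at least 2-fold lower in R6/2, 25 were lower (18.8%) and 6 higher. Bulk striatum of WT and zQ175 mice gave 0 calls in edgeR, with 1384 and 921 genes at an unadjusted p under 0.05. No other tool was run there. The log2 values of Tceal6, Atp2b3, Nap1l3 and Dach1 were small there. They were -0.072, -0.089, -0.215 and 0.015 in WT bulk and -0.067, -0.077, -0.2 and -0.053 in zQ175 bulk.

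**Figure D2:**
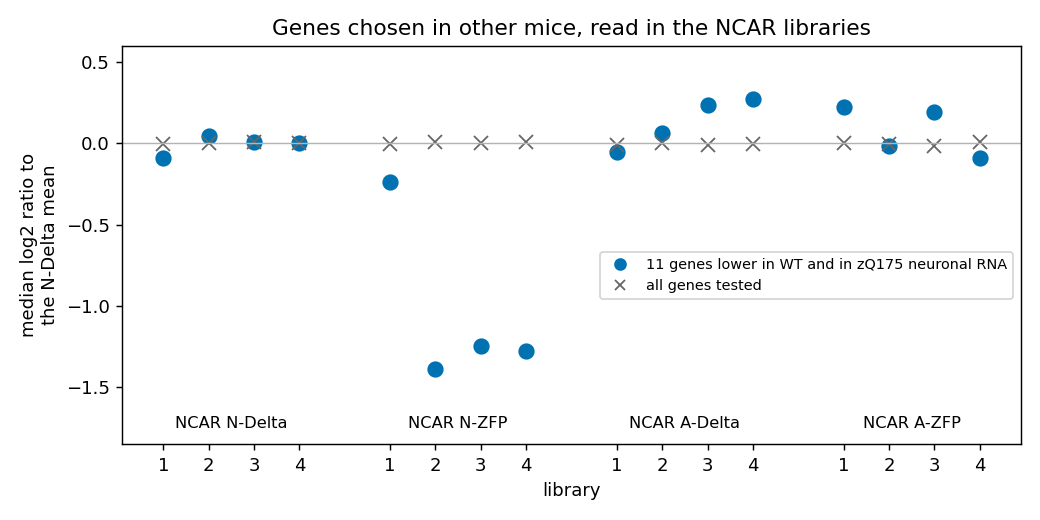
Median log2 ratio to the N-Delta mean in each NCAR library for the 11 genes that N-ZFP lowered in both WT and zQ175 neuronal RNA (circles) and for all genes tested (crosses). N-ZFP 2 to 4 lie at -1.39 to -1.24, N-ZFP 1 at -0.24, and the A virus libraries at -0.09 to 0.27.

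R6/2 striatum with the same viruses gave larger falls for several of these genes, in a comparison where 4.86% of all genes were lower and 8.2% higher. Tceal6 was at 59.4 to 61.7 CPM in R6/2 N-Delta and 2.95 to 10.8 CPM in R6/2 N-ZFP, a log2 fold change of -3.54 ± 0.34. The difference of the effects, NCAR minus R6/2, was 2.23 ± 0.44 for Tceal6 (adjusted p = 0.00206) and 1.59 ± 0.33 without N-ZFP 1 (adjusted p = 0.00517). For Atp2b3, Dach1 and Impdh1 it was 1.86, 1.71 and 0.96 (adjusted p = 0.00291, 0.00157 and 0.0111), and 1.35, 1.19 and 0.60 without N-ZFP 1 (adjusted p = 0.00918, 0.00126 and 0.037). For Nap1l3 and Gab3 the differences of 1.28 and 1.05 (adjusted p = 0.0146 and 0.0176) became 0.79 and 0.71 without that library and no longer passed (adjusted p = 0.0639 and 0.0711). Dnajc12, Mzt2, Brdt, Rassf3 and Rsl24d1 differed by 0.07, 0.41, -0.08, -0.10 and 0.25, none of which passed. With length and GC offsets the differences of Mzt2 and Rsl24d1 became 0.72 and 0.67 and passed (adjusted p = 0.0104 and 0.00133). Over all genes, 32.3% (7029) were called different between the NCAR and R6/2 effects, so a called difference is common in this comparison.

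Taken across the genome, the same fit called far more genes. Of 21752 genes tested with edgeR, 2213 were lower (10.2%) and 2563 higher (11.8%) in N-ZFP, of which 171 and 120 changed at least 2-fold. With the 2 groups fitted alone, without the spread of the other libraries, 19 were lower (0.0974%) and 13 higher (0.0667%). In that fit 6430 of 19502 genes had an unadjusted p under 0.05, beside 8266 of 21752 in the full fit. A larger share of all genes stood apart in the controls than in the treated libraries: N-ZFP lay below all 12 other NCAR libraries for 52 genes (0.239%) and above them for 36 (0.166%), whereas N-Delta lay above its 12 others for 553 (2.54%) and below them for 478 (2.2%). N-Delta differed from A-Delta at 3924 genes higher (18%) and 4134 lower (19%). With A-Delta as the control, N-ZFP had 39 genes lower (0.179%) and 12 higher (0.0552%). That comparison shares the N-ZFP libraries with the main contrast.

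The many calls moved with transcript length. The length index of a library is the Pearson correlation, over protein-coding genes, between its log2 CPM deviation from the mean of the 31 libraries and log10 exon length. It was -0.425, -0.226, -0.335 and -0.267 in N-Delta 1 to 4 and 0.125, -0.298, 0.030 and -0.041 in N-ZFP 1 to 4. The 4 N-Delta libraries were the lowest group of the 8, whose other means were -0.046 to 0.211, and N-ZFP 2 lay inside the N-Delta range. The difference of 0.267 between N-ZFP and N-Delta gave an exact two-sided permutation p of 0.0857 (adjusted over 3 library measures, 0.129), where the smallest p possible is 0.0286. The corresponding GC index differed by 0.193 (exact p = 0.0857) and the share of mitochondrial messages by -0.042 percentage points (exact p = 0.771).

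**Figure D3:**
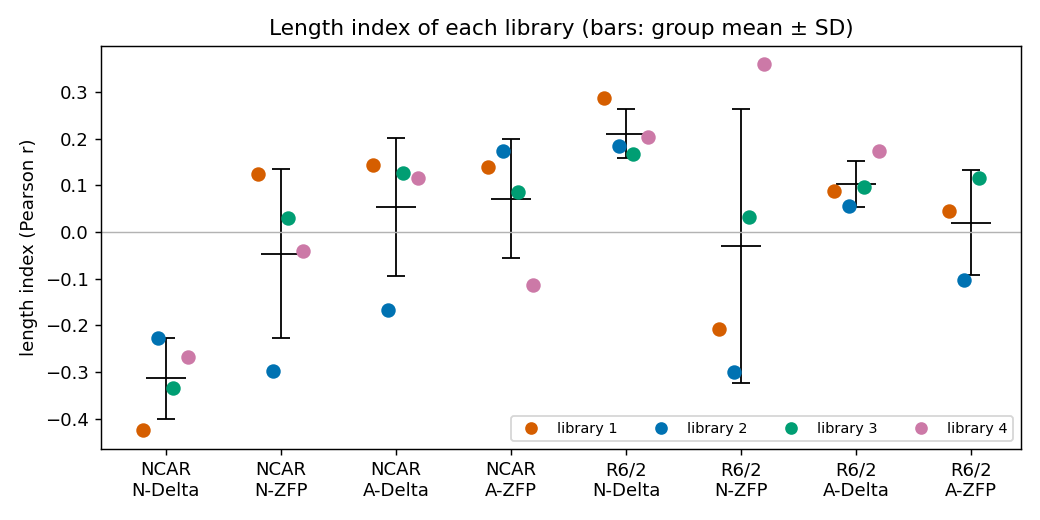
Length index of each of the 31 libraries in 8 groups, with the group mean and SD as bars. The 4 NCAR N-Delta libraries lie between -0.425 and -0.226, and of the NCAR N-ZFP libraries only N-ZFP 2 reaches that range.

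Over protein-coding genes in 10 classes of exon length, the median log2 fold change rose from -0.27 in the shortest genes (102 to 1691 bases) to 0.25 in the longest (over 9753 bases). Among the shortest, 22.1% were called lower and 0.822% higher, and among the longest 4.17% were lower and 31.6% higher. The correlation over 15827 protein-coding genes, which are not independent replicates, was 0.348. Offsets that removed each library's trend on length and base composition left class medians of -0.10 to 0.07, and the length index as a covariate left -0.06 to 0.05. In R6/2 the same comparison ran the other way, from 0.25 to -0.14.

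**Figure D4:**
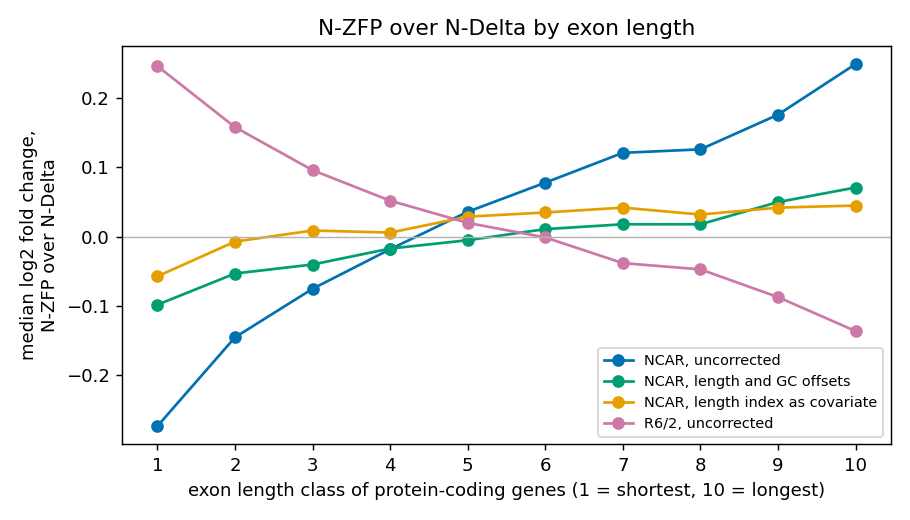
Median log2 fold change, N-ZFP over N-Delta, in 10 exon length classes of protein-coding genes. The uncorrected NCAR line climbs from -0.27 to 0.25, both corrected lines stay within -0.10 to 0.07, and the R6/2 line falls.

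The number of calls depended on the correction and on single libraries. With offsets for length alone 2085 genes were lower (9.59%) and 2039 higher (9.37%). With the length and GC offsets 1352 genes were lower (6.22%) and 1464 higher (6.73%), and with the covariate 21 were lower (0.0965%) and 8 higher (0.0368%). Leaving out N-ZFP 1 left 93 lower (0.43%) and 60 higher (0.277%), of which 92 and 60 had been called before. Without N-Delta 1 the counts were 30 and 10, without N-ZFP 3 they were 30 and 9, without N-Delta 4 they were 86 and 36, and without N-ZFP 4 they were 103 and 67. Leaving out N-Delta 2 raised them to 3288 and 3869. At an unadjusted p under 0.05 in edgeR there were 8266 genes with all libraries and 2827 with the covariate. There were 6389 without N-ZFP 1, 5306 without N-Delta 1, 6582 without N-ZFP 3 and 7261 without N-Delta 4. Leaving out any of these libraries lowered the unadjusted count by a smaller share than it lowered the calls.

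**Figure D5:**
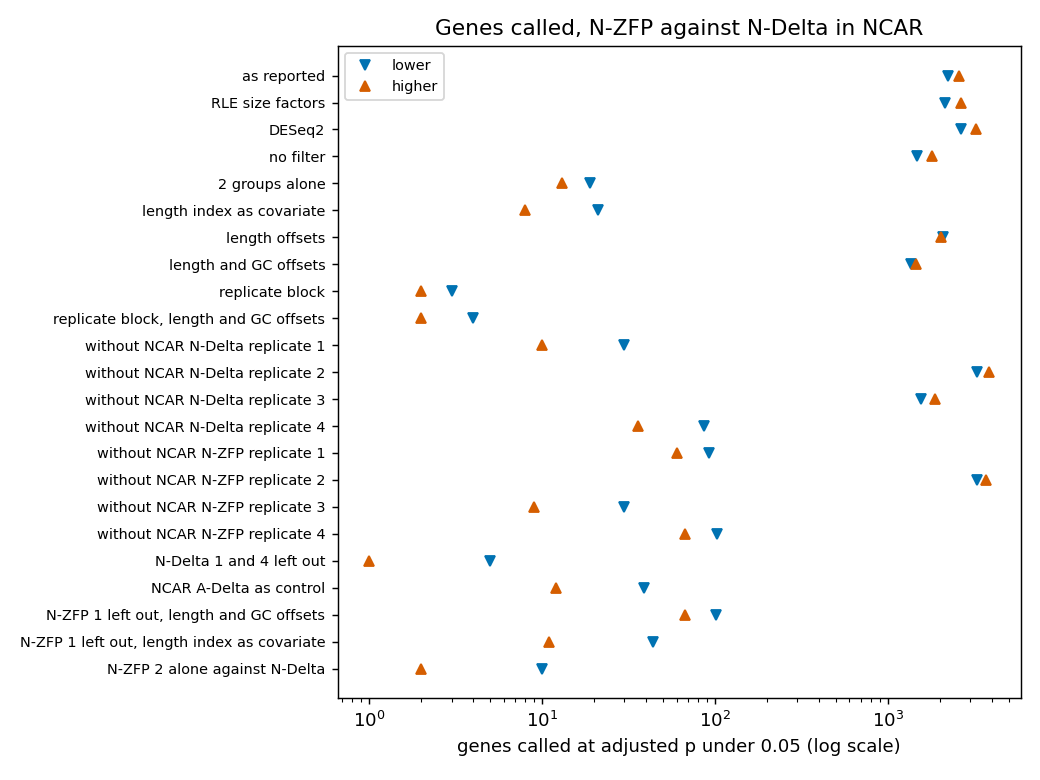
Genes called lower and higher in N-ZFP under each setting, on a log axis. The lowest counts of genes lower are 3 with the replicate block and 5 without N-Delta 1 and 4, and the highest is 3288 without N-Delta 2.

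Genes called in the uncorrected fit and under both corrections numbered 20 lower (0.0919% of those tested) and 7 higher (0.0322%). Of the lowered genes described above, Tceal6, Atp2b3, Dach1 and Arpp21 are not among the 20, as with the covariate their adjusted p were 0.179, 0.15, 0.12 and 0.0993, at log2 values of -1.30, -1.25, -0.96 and -0.97. Of the 20, 13 were called lower in R6/2 (65%, against 4.86% of all genes tested), 5 of 18 tested in WT neuronal RNA and 6 of 18 in zQ175 neuronal RNA. In WT bulk striatum 0 of 17 tested were called and 11 were negative, with a median log2 of -0.044. In zQ175 bulk striatum 0 of 17 were called and 15 were negative, with a median of -0.051. The medians over all genes were -0.004 and -0.001 there. An uninterrupted run of at least 6 CAG or CTG units lay in exons of 4 of the 20 (Nap1l3, Brdt, Gab3 and Gas2; 20%), against 1.41% of all genes with exons. The share was 1.04% over all 2213 genes called lower, 3.25% over those called higher, and 8.7% over the 92 genes with exons among those lower without N-ZFP 1. Runs of at least 4 units lay in exons of 6 of the 20 (30%), against 5.98% of all genes with exons. The search was for the letters CAG and CTG on the transcript strand, and a run is a description of the sequence, not a site of binding.

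Several of the 20 differed in other ways. Gas2, a growth-arrest and cytoskeleton gene, was at 64.1, 31.5, 37.2 and 47.8 CPM in N-Delta and at 19.3, 25.1, 16.5 and 19.4 CPM in N-ZFP (log2 -1.17 ± 0.18, adjusted p = 0.00148). The 8 A virus libraries were at 22.3 to 31.3 CPM, near N-ZFP, and N-Delta was called higher than A-Delta by 0.88 (adjusted p = 0.00177). Tle6, a Groucho-related gene, fell by 1.08 ± 0.16 (adjusted p = 0.000714) in NCAR and had a log2 value of -0.03 in R6/2, a difference of -1.05 ± 0.23 (adjusted p = 0.00296). The pseudogenes Rps2-ps10 and Tmem181c-ps were at 0.379 to 0.861 and 0.0881 to 0.174 CPM in N-ZFP against 12.2 to 19.0 and 3.19 to 3.89 CPM in N-Delta. Low values of both also occurred in A-ZFP 2, at 0.441 and 0.194 CPM, and in R6/2 N-ZFP 1, at 0.567 and 0.0135 CPM, while the other A virus libraries were at 13.8 to 30.6 and 2.83 to 6.99 CPM. R6/2 N-ZFP 3 was also low for Tmem181c-ps, at 0.111 CPM. Tmem181c-ps, Gm38393 and Gm7292 were named after their values were seen. Reads of pseudogenes can be shared with their parent genes, so these values are uncertain.

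Among the genes that rose, Per2, a core clock repressor, was at 13.4, 23.9, 22.9 and 23.6 CPM in N-Delta and at 48.8, 39.5, 45.3 and 37.6 CPM in N-ZFP (log2 1.03 ± 0.19, adjusted p = 0.00828). The A virus libraries were at 26.7 to 53.3 CPM, and N-Delta was called lower than A-Delta by -0.75 (adjusted p = 0.00461). Gm38393, which overlaps Snrpn and Snurf on the same strand of chromosome 7 and may share their reads, was at 36.7 to 59.7 CPM in N-Delta and 74.6 to 102 CPM in N-ZFP (log2 0.94 ± 0.12, adjusted p = 0.000204). All N-ZFP libraries exceeded the A virus libraries, which were at 42.6 to 51.0 CPM, and R6/2 gave 1.94 ± 0.12 for Gm38393. The noncoding RNA Gm7292 was at 3.12 to 5.25 CPM in N-Delta and 45.6 to 109 CPM in N-ZFP, but R6/2 ran in the opposite direction and A-Delta 1 was at 5.27 CPM while the other A-Delta libraries were at 53.3 to 127.5 CPM.

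Gene groups are read against the shares over all genes, 11.8% higher and 10.2% lower. Of 83 cytosolic ribosomal protein genes tested, 47 were lower and 0 higher, with a median log2 of -0.42 beside -0.01 for all genes, and their median exon length was 1770 bases beside 3392. With offsets 24 were lower, and with the covariate or against A-Delta 0 were. Rplp1, a ribosomal stalk protein, was at 533, 527, 517 and 432 CPM in N-Delta and at 382, 235, 237 and 267 CPM in N-ZFP, without overlap (log2 -0.84 ± 0.17, adjusted p = 0.0132). It was the 1 gene of the group still called without N-ZFP 1, at -1.03 ± 0.17 (adjusted p = 0.00161), and it was lower in R6/2 too, at -1.08 ± 0.17 (adjusted p = 0.000105). Of 84 nuclear oxidative phosphorylation genes 52 were lower and 1 higher, with a median of -0.40; 34 were lower with offsets and 0 with the covariate. Atp5mpl, a subunit of ATP synthase, and Cycs (cytochrome c) fell by 0.63 and 0.45 (adjusted p = 0.0152 and 0.0167), at -0.02 and 0.01 against A-Delta, and without N-ZFP 1 had similar values of -0.59 and -0.44 that did not pass (adjusted p = 0.0509 and 0.0537).

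Of 30 synaptic scaffold and adhesion genes, whose median exon length was 10752 bases, 13 were higher and 1 lower, with a median of 0.31. With offsets 5 remained higher in count, with the covariate 0, and the median against A-Delta was -0.16. Nrxn2, a presynaptic adhesion gene, was at 60.6, 119, 94.7 and 80.2 CPM in N-Delta and at 144, 120, 166 and 146 CPM in N-ZFP. The groups did not overlap, although the lowest N-ZFP library was close to the highest N-Delta library. Nrxn2 rose by 0.70 ± 0.16 (adjusted p = 0.0195) and did not pass with offsets (0.22, adjusted p = 0.0608). Of 16 neurofilament and cytoskeleton genes 7 were higher and 2 lower; Map1b, a microtubule-associated protein gene, rose by 0.71 ± 0.18 (adjusted p = 0.0195). Of 57 clustered protocadherin gene identifiers 7 were higher and 0 lower, the former close to the 11.8% of all genes; Pcdhga3, which shares exons with other members of its cluster, was at 0.81 ± 0.17 (adjusted p = 0.0152) and is uncertain for that reason. Without N-ZFP 1, Nrxn2, Map1b and Pcdhga3 were at 0.70, 0.64 and 0.71 and did not pass (adjusted p = 0.0529, 0.0698 and 0.0568).

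Striatal projection neuron genes were higher in 14 of 47 and lower in 2, Arpp21 among the latter, with a median of 0.41. Bcl11b, a transcription factor of these neurons, was at 89.7, 247, 170 and 148 CPM in N-Delta and at 374, 203, 352 and 309 CPM in N-ZFP, with overlap (log2 0.92 ± 0.27, adjusted p = 0.0254; without N-ZFP 1 0.82, adjusted p = 0.086; against A-Delta 0.10). Pde10a was at 0.79 ± 0.29 (adjusted p = 0.0491) and did not pass with offsets (adjusted p = 0.0854) or without N-ZFP 1 (adjusted p = 0.164). Adora2a, the adenosine receptor of indirect-pathway neurons, was at 0.71 ± 0.26 (adjusted p = 0.0496) and did not pass with offsets (adjusted p = 0.0878) or without N-ZFP 1 (adjusted p = 0.152). Ppp1r1b, Drd1, Drd2 and Penk did not pass, with log2 values of 0.49, 0.07, 0.70 and 0.44. Against A-Delta 0 projection neuron genes were called, and the median was 0.10.

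Of 20 striatal interneuron genes 8 were higher and 1 lower, with a median of 0.35 at a median exon length of 2560 bases. With offsets 6 were higher, with a median of 0.36, and with the covariate 0 were, with a median of 0.26. Th (tyrosine hydroxylase) was at 4.29, 5.39, 4.72 and 5.62 CPM in N-Delta and at 9.33, 8.30, 7.77 and 7.21 CPM in N-ZFP, above all 12 other NCAR libraries, of which the A virus libraries were at 3.09 to 6.71 CPM. Its log2 fold change was 0.70 ± 0.18 (adjusted p = 0.0195) and 0.63 ± 0.19 without N-ZFP 1 (adjusted p = 0.0721). Lhx6, a factor of medial ganglionic eminence interneurons, was at 10.6 to 16.3 CPM in N-Delta and 18.1 to 24.1 CPM in N-ZFP (log2 0.70 ± 0.15, adjusted p = 0.0164; 0.69 without N-ZFP 1, adjusted p = 0.049).

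Glial and vascular counts stand beside 11.8% of all genes higher and 10.2% lower, and those of microglial and oligodendrocyte genes were near these shares. Oligodendrocyte precursor genes were higher in 6 of 18 and lower in 0; Pdgfra, their growth factor receptor, rose by 0.59 ± 0.15 (adjusted p = 0.0195). Vascular genes were higher in 9 of 30 and lower in 3; Abcb1a, the endothelial drug efflux pump, rose by 0.90 ± 0.25 (adjusted p = 0.022) and was at -0.17 against A-Delta. Homeostatic astrocyte genes were higher in 6 of 30 and lower in 2, and with offsets 3 were higher and 3 lower. Slc6a11, a GABA transporter, rose by 0.58 ± 0.15 (adjusted p = 0.0195). Slc1a2, a glutamate transporter, rose by 0.58 ± 0.20 (adjusted p = 0.04) and Gfap was at 0.11 (adjusted p = 0.698). The astrocyte marker Slc1a3 ran lower, at 868 to 982 CPM in N-Delta and 660 to 810 CPM in N-ZFP. Microglial genes were higher in 5 of 30 and lower in 3, with a median of -0.06. Sall1, a factor of microglial identity, rose by 0.65 ± 0.16 (adjusted p = 0.0195). The microglial marker P2ry12 ran lower, at 84.1 to 93.6 CPM in N-Delta and 65.3 to 81.6 CPM in N-ZFP. Oligodendrocyte genes were higher in 1 of 30 and lower in 4; Qdpr, a pteridine reductase, fell by 0.46 ± 0.14 (adjusted p = 0.029). Immediate early genes were higher in 1 of 30 and lower in 2, with a median of -0.28. Against A-Delta their median was -0.55, with 0 higher and 1 lower. Egr3, the 1 called higher, ran against the list and rose by 0.61 ± 0.18 (adjusted p = 0.0277). None of the glial, vascular and interneuron groups had a call against A-Delta or with the covariate. Apart from Lhx6, the genes given a log2 value in this paragraph and the last did not pass without N-ZFP 1.

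A list of 14 Tceal and Bex genes includes Tceal6, and also Nap1l2 and Nap1l3, which lie elsewhere on the X chromosome. Of the 14, 1 was higher and 5 were lower, Nap1l2 and Nap1l3 among the latter, with a median of -0.20. With offsets 3 were higher and 2 lower. Tceal9 fell by 0.30 (adjusted p = 0.0331) and was at 0.14 with offsets and 0.13 against A-Delta. Nap1l2, a relative of Nap1l3, fell by 0.30 (adjusted p = 0.0288) and was at 0.01 against A-Delta. Of 24 synaptic vesicle genes 6 were higher and 1 lower, and of 27 cholesterol synthesis genes 5 were higher and 2 lower, with medians of 0.12 and 0.002 beside 11.8% of all genes higher and 10.2% lower. The 13 mitochondrially encoded genes had 0 higher and 1 lower, with a median of -0.001. Interferon response genes were higher in 2 of 45 and lower in 2, stress genes of the endoplasmic reticulum and heat shock higher in 2 of 34 and lower in 3, and reactive astrocyte genes higher in 2 of 29 and lower in 0, shares at or below the background.

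Markers of neighbouring regions varied between libraries. Pmch, the melanin-concentrating hormone gene of the lateral hypothalamus, was at 6.68, 0.538, 0.359 and 28.4 CPM in N-Delta and at 0.573, 2.93, 0.492 and 0.344 CPM in N-ZFP. It was called lower at -3.07 ± 1.10 (adjusted p = 0.0461), without N-ZFP 1 it did not pass (adjusted p = 0.129), and without N-Delta 1 and 4 it was at 1.25 (adjusted p = 0.638). Thalamic genes were highest in N-ZFP 2, where the 14 tested summed to 317 CPM against 153 to 228 CPM in the other 7 libraries. Prkcd and Tcf7l2 were at 50.4 and 6.88 CPM there, and at most 33.0 and 3.02 CPM in the others. Of the 14 thalamic genes 2 were higher and 0 lower, with a median of 0.46. Avp was at 19.9 CPM in N-Delta 4 and 17.2 CPM in N-ZFP 3, and at 1.92 CPM or less in the others. The 17 hypothalamic genes tested summed to 42.0 to 114 CPM in N-Delta and 58.1 to 80.5 CPM in N-ZFP, and 0 were called higher and 2 lower. The part of hypothalamic and thalamic RNA in the other results was not tested.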

How the data were processed

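An RNeasy plus kit gave the RNA and the library kit was stranded and took total RNA, per the labels' protocols. The authors deposited raw read counts per gene; STAR, HTSeq and mm10 are named in the submitters' processing notes, and versions and the strand setting are not given in the sources used here, so overlapping, antisense and near-identical genes are uncertain. Counts of the 31 bulk libraries in 8 groups of NCAR and R6/2 mice entered 1 fit (R 4.3.3, edgeR 4.0.16 quasi-likelihood, TMM, filterByExpr, Benjamini-Hochberg threshold 0.05; log2 CPM prior count 2). Alternatives used DESeq2 1.42.0, libraries left out, a length index covariate, and lowess offsets (span 0.3) on exon length and GC from GENCODE M21. WT and zQ175 libraries were fitted apart. Ratios to the N-Delta mean used log2(CPM + 0.1). Scripts were tested on simulated data. No 2 libraries were identical. Named genes were fixed genes, the 10 lowest and 8 highest genes held under both length corrections (group means averaging 2 CPM or more, groups not overlapping), the 3 lowest and 3 highest whose call both corrections removed, and the genes of smallest p in each list, without Gm and Rik names. Members and lists were chosen with earlier results of these data known. Some genes that this rule takes in are not reported here.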

Additional observations from a re-analysis of the deposited data

Results flagged for a closer look

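Single libraries stood apart within their group of 4 for several genes, by a gap test that flags about 1 group in 20 by chance. N-ZFP 1 was the high library for Tceal6 (43.3 CPM), Nap1l3 (38.3 CPM), Dach1 (96.2 CPM), Brdt (9.11 CPM) and Arpp21 (1119 CPM). N-ZFP 2 was high for Pmch (2.93 CPM), Rpl7l1 (56.0 CPM) and Tbp (33.4 CPM), and N-ZFP 3 for Avp (17.2 CPM). In N-Delta, library 1 was high for Lyz2 (15.8 CPM) and low for Per2 (13.4 CPM), and library 4 was high for Avp (19.9 CPM) and low for Rplp1 (432 CPM).

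The effect of N-ZFP differed between NCAR and R6/2 by the interaction test in edgeR for 32 named genes, in a comparison that called 32.3% of all genes. The log2 difference, NCAR minus R6/2, was positive for Tceal6 (2.23), Atp2b3 (1.86), Dach1 (1.71), Abcb1a (1.38), Nap1l3 (1.28), Gab3 (1.05), Slc1a2 (1.02), Sall1 (1.01), Pdgfra (0.97), Impdh1 (0.96), Nrxn2 (0.77), Map1b (0.76), Per2 (0.71), Htt (0.68), Slc6a11 (0.67), Pcdhga3 (0.65), Cacna1a (0.61), Acsl1 (0.61) and Gm7292 (8.06). It was negative for Rps2-ps10 (-4.16), Tmem181c-ps (-3.06), Casp1 (-1.57), Lyz2 (-1.55), Gas2 (-1.10), Tle6 (-1.05), mt-Ti (-1.04), Gm38393 (-1.01), Atp5mpl (-0.997), Rpl7l1 (-0.63), Cycs (-0.47), Pnpla8 (-0.35) and Pmch (-10.66). Without NCAR N-ZFP 1 the difference no longer passed for Nap1l3, Gab3, Cacna1a, Map1b, Pcdhga3, Per2, Pnpla8, Tmem181c-ps and mt-Ti, with adjusted p from 0.0591 to 0.0992. The Pmch value depends on R6/2 N-Delta libraries at or near 0 and is no measure of size. The length trends of the 2 comparisons ran in opposite directions, and with length and GC offsets 6033 genes were called different. With these offsets 11 of the 32 named genes no longer passed: Htt, Nrxn2, Cacna1a, Map1b, Acsl1, Cycs, Pcdhga3 and Per2 were at 0.15, 0.15, 0.10, 0.39, 0.36, -0.22, 0.51 and 0.48, Casp1 and Tmem181c-ps at -0.95 and -2.75, and mt-Ti turned to 0.24, with adjusted p from 0.0539 to 0.613.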

How the results depend on the processing

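Genes lower and higher numbered 2213 and 2563 as reported. They were 1469 and 1795 without the low-count filter, 1352 and 1464 with length and GC offsets, 21 and 8 with the length index as covariate, 19 and 13 with the 2 groups fitted alone, 39 and 12 with A-Delta as control, and 5 and 1 without N-Delta 1 and 4. Chosen after seeing the data, leaving out N-ZFP 1 gave 101 and 67 with offsets and 44 and 11 with the covariate, and N-ZFP 2 alone gave 10 and 2. Leaving out 1 library gave 30 to 3288 lower and 9 to 3869 higher; the counts fell below 110 without N-Delta 1, N-Delta 4, N-ZFP 1, N-ZFP 3 or N-ZFP 4. With the replicate block the counts were 3 and 2, and 4 and 2 with the block and offsets; same-numbered libraries correlated at -0.415, -0.624, 0.323 and 0.193, so the numbers do not pair them. The length index difference was 0.21 to 0.351 with 1 library left out, and without N-ZFP 2 its exact permutation p was 0.0286, the smallest possible. It was 0.302 with Spearman correlation and 0.309 with the longest transcript. Over genes not called in the main fit it fell to 0.154 (exact permutation p = 0.114). Genes called different between NCAR and R6/2 fell from 7029 to 242 with the covariate. The 10 lowest genes held under both length corrections kept a negative sign under every alternative run, and 2 to 10 of them were called. They had been chosen as called lower in the main fit and both corrections, with all N-ZFP libraries below all N-Delta libraries. That choice largely fixed their sign in advance, so the sign is no separate support. Against A-Delta the sign turned for Abcb1a (-0.17), Cacna1a (-0.35), Casp1 (0.10), Cycs (0.009), Egr3 (-0.039), Lyz2 (0.17), Map1b (-0.23), Nap1l2 (0.007), Nrxn2 (-0.22), Pcdhga3 (-0.077), Plin4 (-0.11), Pmch (0.83), Ptprv (-0.19), Qdpr (0.013), Rpl7l1 (0.031), Slc1a2 (-0.043) and Tceal9 (0.13). Tceal9 also turned with offsets (0.14), with block and offsets (0.14) and with offsets without N-ZFP 1 (0.12), and Pmch without N-Delta 1 and 4 (1.25). The causes were not tested.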

Other observations

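Genes of the Y chromosome were lower in N-ZFP 4 than in the other 7 libraries. Ddx3y was at 48.2 CPM there and at 99.0 to 126 CPM elsewhere, and Uty, Kdm5d and Eif2s3y were at 22.7, 16.5 and 18.7 CPM against 58.6 to 94.8, 40.8 to 48.9 and 36.1 to 62.7 CPM.

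Genes whose calls both length corrections removed included Casp1 (an inflammatory caspase), Lyz2 (lysozyme of myeloid cells) and mt-Ti (a mitochondrial tRNA), which fell by 1.02, 0.97 and 0.92 on the log2 scale. Plin4 (a lipid droplet protein), Ptprv and Slc4a11 rose by 2.04, 1.14 and 0.95. With length and GC offsets the 6 values were -0.61, -0.73, -0.03, 1.78, 0.86 and 0.77, and with the covariate -0.45, -0.36, -0.71, 1.502, 1.16 and 0.65, so the size of several stayed similar where the call was lost. In each of these 6 genes the N-ZFP value lay closer to A-Delta, at 0.10, 0.17, -0.10, -0.11, -0.19 and 0.15 on the log2 scale, than to N-Delta.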
